A study of Mus musculus with 6 samples.

Results

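Collagen and laminin genes were compared between ipsilateral and contralateral retinal ganglion cells (RGCs), the output neurons of the retina whose axons at the optic chiasm either avoid the midline and stay on their side or cross it. Members were all genes that the array's annotation names as a collagen chain (Col, a number, a and a number) or a laminin chain (Lama, Lamb or Lamc and a number), taken from probe sets that name exactly 1 gene. There were 52 of them among 18193 genes, 42 collagens and 10 laminins, measured by 101 probe sets. Each gene is given by its brightest probe set over the 6 arrays, and 33 of the 52 had more than 1 probe set. The level of 48 members (38 collagens and 10 laminins) reached the filter level of log2 4.74 used for testing. Col4a3, Col6a3, Col6a5 and Col8a2 did not, and were not tested.

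The RGCs came from C57BL/6J embryos at E16.5 (given as E16 in the sample records), with no genetic change in either group. Rhodamine dextran was placed on the cut optic tract and left for 2 h, the retinas of 2 litters were pooled by side, and dye-filled live cells were collected by FACS in 3 independent rounds. Each round gave 1 ipsilateral sample, with dye-filled cells from the retina on the side of the labeled tract, and 1 contralateral sample, from the opposite retina, so that a sample is a pool of embryos and a round is a batch that holds both groups. The rounds had been chosen for high Zic2 in ipsilateral RGCs, and far fewer cells were sorted for the ipsilateral samples, although equal RNA from both sides of a round was amplified as cDNA for the arrays. Values are log2 intensities per probe set, and every difference is ipsilateral minus contralateral.

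Collagens are proteins of 3 chains wound in a helix, and chains of different genes may share a molecule. Fibrillar collagens build fibers, collagen IV builds the mesh of basement membranes, and fibril-associated collagens sit on the surface of fibers. Laminins join an alpha, a beta and a gamma chain into a cross-shaped molecule that starts the assembly of a basement membrane. In the eye, such a membrane (the inner limiting membrane) lies between the retina and the vitreous, next to the fiber layer in which RGC axons grow, and laminin is a substrate on which these axons extend. The vitreous itself is a gel of thin fibers of collagens II, IX, V and XI.

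The RGC label was borne out by 9 analyzed RGC genes, among them Isl1, Thy1, Tubb3 and Gap43, whose mean log2 level per array was 11.30–11.74 in ipsilateral and 11.61–12.11 in contralateral RGCs. All 9 had the lower level on the ipsilateral side in each of the 3 rounds (20.2% of all genes did). In 3 of them the groups did not overlap (1.98% of all genes), and 0 were called. Array medians differed more between rounds (5.81, 6.70 and 6.33 in ipsilateral and 5.80, 6.65 and 6.26 in contralateral RGCs in rounds 1 to 3) than between sides. Genes of other cell types were also detected. For 12 microglia and macrophage genes the mean level per array was 8.17–9.05 in ipsilateral and 4.58–5.55 in contralateral RGCs, and 7 of the 12 rose (6 in a fit that pairs the samples of a round). Of all genes tested, 0.358% rose (0.319% in the paired fit). Among the 7, C1qb, C1qc, Csf1r and Aif1 had contralateral means below the filter level (log2 4.455, 4.403, 4.712 and 4.618). They passed the filter only through the ipsilateral samples, which fixes their direction. For 9 retinal progenitor genes the mean level per array was 8.33–9.41 in ipsilateral and 6.78–7.07 in contralateral RGCs. Of these 9, 3 rose (0 in the paired fit), against the same 0.358% of all genes (0.319% in the paired fit). Endothelial genes (10 analyzed, 4.68–5.82 in ipsilateral and 4.70–5.67 in contralateral RGCs), mesenchyme genes (8 analyzed, 4.27–5.16 in ipsilateral and 4.21–5.43 in contralateral RGCs) and pericyte genes (8 analyzed, 5.17–6.01 in ipsilateral and 5.10–5.84 in contralateral RGCs) gave no call. The endothelial genes Cdh5, Tek, Emcn and Tie1 and the mesenchyme genes Twist1, Foxc1, Foxc2 and Prrx2 lay below the filter level on average. In sorted pools, more cells of a type and more RNA per cell cannot be told apart.

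Of the 48 members tested, Col2a1 rose in ipsilateral RGCs and none fell, when a call needed 2-fold and a limma p under 0.05 after Benjamini–Hochberg adjustment over every probe set tested (1 of 48, where 0.358% of all genes tested rose and 0% fell). With the replicate block, or paired fit, which compares the samples within a round, no member was called (0.319% of all genes rose). At a 2-fold change and an unadjusted p under 0.05 from limma, 4 collagens were higher (Col2a1, Col1a2, Col4a1 and Col4a5), against 2.47% of all genes, and 0 members were lower, against 0.156%. By direction alone, 18 of 48 members (37.5%) were higher in the ipsilateral sample of all 3 rounds, against 17.6% of all genes. In all 3 rounds 4 members (8.33%) were lower, against 20.2%. In 6 members each ipsilateral array lay above each contralateral array, against 3.84% of all genes, and in 0 members below, against 1.98%. Irrespective of any p, 5 members were 2-fold or more higher on average (the 4 above and Col3a1), against 2.75% of all genes, and 0 were that much lower, against 0.222%. Of these 5, Col3a1 and Col4a5 had contralateral means below the filter level (log2 4.44 and 4.46) and passed the filter only through the ipsilateral samples, which fixes their direction. Both are also among the 18 members higher in all 3 rounds, and Col4a5 is among the 6 without overlap. The median log2 difference was 0.14 over the collagens and 0.15 over the laminins, beside −0.01 over all genes. The typical member thus differed little.

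**Figure D1:**
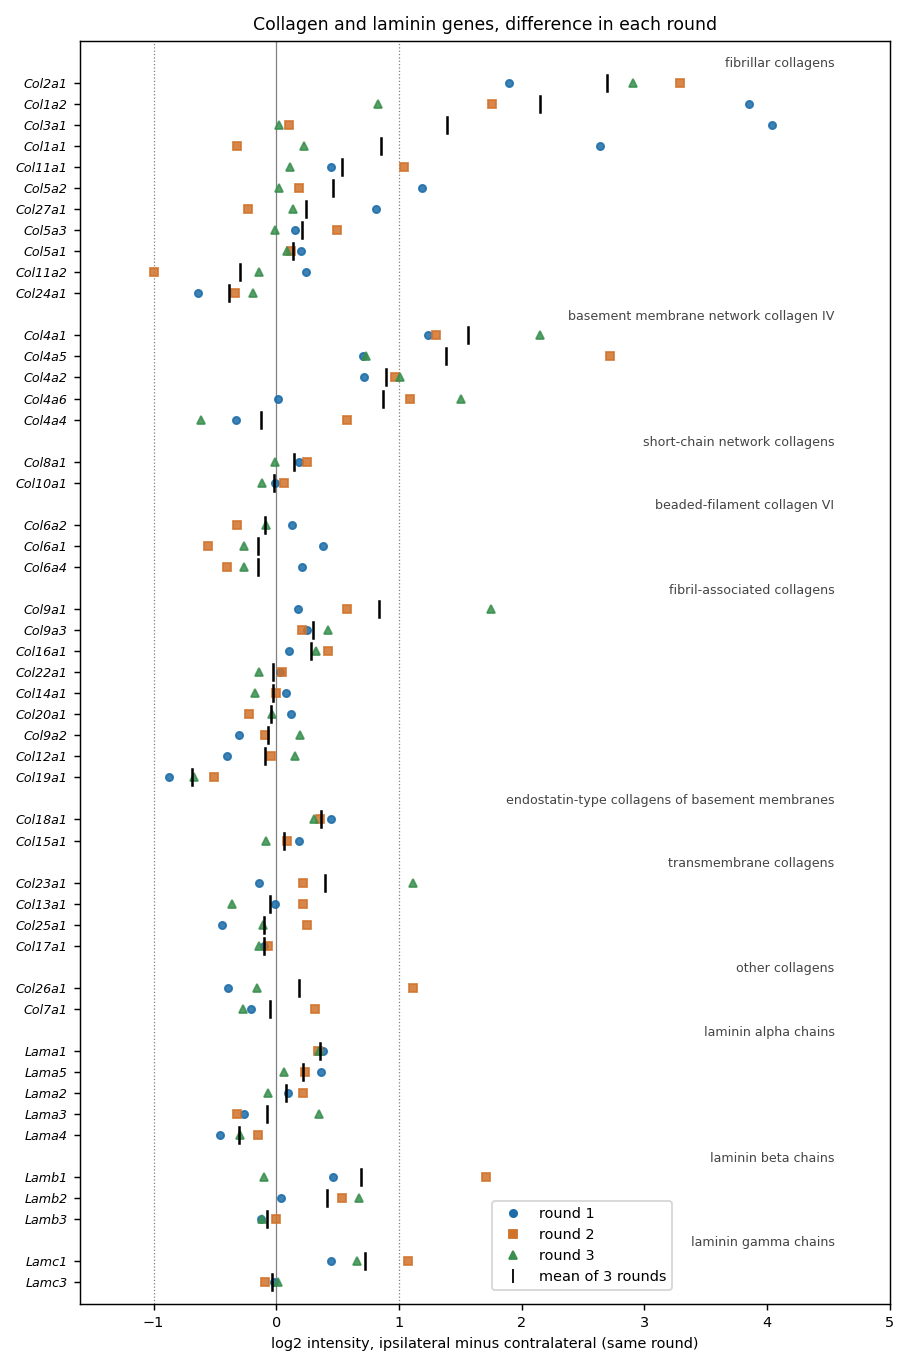
Log2 difference (horizontal axis, ipsilateral minus contralateral) of the 48 tested collagen and laminin genes, grouped by kind of chain. Each symbol is 1 round, black bars are the mean of 3 rounds, and dotted lines mark a 2-fold difference. Col2a1 and Col4a1 lie beyond 2-fold in each round, Col3a1 and Col1a1 in round 1 only, and most other members lie between the dotted lines.

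Col2a1, the chain of collagen II that forms the fibers of cartilage and vitreous and is also made in the embryonic eye, was the brightest member. It had a single probe set, with log2 levels of 10.29, 11.46 and 10.81 in ipsilateral RGCs of rounds 1 to 3, against 8.39, 8.17 and 7.90 in contralateral RGCs. The groups did not overlap, and the lowest ipsilateral array was above the highest contralateral array by more than the spread within either group. Col2a1 exceeded its contralateral level 6.49-fold, with a mean log2 difference of 2.70 over rounds that gave 1.90, 3.29 and 2.91, and the adjusted p of limma was 0.0154. Its SE was 0.42 without pairing and 0.29 in the paired fit. Each SE given below is from the fit without pairing unless said otherwise, and so also holds the spread between rounds. Among the 15346 genes above the filter level it ranked 116, 36 and 67 for the size of the ipsilateral excess in rounds 1 to 3. The call was lost with the replicate block (adjusted p = 0.0585), without ipsilateral replicate 3 (2.72, adjusted p = 0.0565) and without contralateral replicate 3 (2.57, adjusted p = 0.0721). Leaving out 1 array leaves its round with a single side. Such values, here and below, therefore also hold an offset between rounds.

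Progenitor genes were higher in the same ipsilateral samples. Sox9, on that list and known to activate Col2a1 in mouse cartilage, had log2 levels of 8.37, 9.73 and 9.18 in ipsilateral and 6.77, 6.60 and 6.30 in contralateral RGCs. In rounds 1 to 3 Sox9 differed by 1.59, 3.13 and 2.88, and the median of the progenitor list was 1.51, 2.15 and 2.88. The part of Sox9 or of progenitor cells in the level of Col2a1 was not tested.

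Chains that join collagen II in its fibers were less different. Col9a1, a chain of the fibril-associated collagen IX on the surface of collagen II fibers, had log2 levels of 8.88, 9.87 and 10.80 in ipsilateral and 8.70, 9.29 and 9.05 in contralateral RGCs. It was the second brightest member, and its groups overlapped. The ipsilateral sample of round 3 stood above the rest, and the log2 difference was 0.83 (SE 0.49, limma adjusted p = 1). It was 0.36 without ipsilateral replicate 3 and 1.32 without ipsilateral replicate 1. A dimmer probe set of Col9a1 had an excess in each round, of 0.59, 1.13 and 0.92. The partner chains Col9a2 and Col9a3 differed by −0.07 and 0.30. Col11a1, a minor chain of the same fibers, had log2 levels of 6.79, 8.09 and 6.79 in ipsilateral and 6.34, 7.04 and 6.68 in contralateral RGCs, a difference of 0.53 (SE 0.45, adjusted p = 1) with overlapping groups. Without ipsilateral replicate 2 this was 0.10. Col11a2 differed by −0.30, and Col5a1, Col5a2 and Col5a3, chains of the minor fibrillar collagen V, by 0.14, 0.46 and 0.21. Of these 8 partner chains, 0 passed limma after adjustment, and 0 when the unadjusted p was used at 2-fold.

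Fibrillar collagens of fibroblasts and other connective tissue cells were high in the ipsilateral sample of round 1. Col1a2 and Col1a1 encode both chains of collagen I, the main fiber of skin and bone, and Col3a1 encodes collagen III, which accompanies it in soft tissues. Col1a2 had log2 levels of 9.13, 8.65 and 7.48 in ipsilateral RGCs, against 5.27, 6.90 and 6.66 in contralateral RGCs. Each ipsilateral array was above each contralateral one, but the excess was uneven and largest in round 1, with differences of 3.86, 1.75 and 0.83. The mean difference of 2.15 was 4.42-fold (SE 0.53) and did not pass (limma adjusted p = 0.238, paired fit 0.219). It passed with an intensity trend and robust estimation (2.15, adjusted p = 0.0401) and with array weights (1.03, adjusted p = 0.0460), and as the mean of its probe sets it differed by 1.15 (adjusted p = 1).

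Col1a1 had log2 levels of 8.16, 6.06 and 6.03 in ipsilateral and 5.52, 6.38 and 5.80 in contralateral RGCs. Only round 1 showed a difference above 2-fold, of 2.64, while rounds 2 and 3 gave −0.32 and 0.23. The mean of 0.85 (SE 0.55, limma adjusted p = 1) became 0.14 without ipsilateral replicate 1. A second probe set of Col1a1 behaved alike, with differences of 3.06, 0.23 and −0.01.

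Col3a1 had log2 levels of 7.61, 4.75 and 5.13 in ipsilateral and 3.56, 4.65 and 5.11 in contralateral RGCs. The contralateral level of round 1 was well below the filter level, so that the difference of 4.04 in that round is inexact, and in rounds 2 and 3 the differences were 0.10 and 0.02, at levels close to the filter level. The mean of 1.39 (SE 0.66, limma adjusted p = 1) became 0.50 without ipsilateral replicate 1. In the same round Col5a2 differed by 1.18, and Col6a3, a chain of the beaded filaments of connective tissue that lay below the filter level on average, by 1.21. A second, dimmer probe set of Col5a2 went the other way in round 1, with differences of −0.34, 0.82 and −0.31 in rounds 1 to 3.

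In round 1, 6 members thus had an ipsilateral excess of 2-fold or more, namely Col1a1, Col1a2, Col2a1, Col3a1, Col4a1 and Col5a2, or 12.5% of those tested, where 3.87% of all genes had one. All but Col4a1 encode fibrillar chains. Among these 6, Col3a1 passed the filter only through the ipsilateral samples, which fixes its direction. In round 1 the mean level of the mesenchyme list, of whose 8 genes 4 lay below the filter level, was 4.27 in ipsilateral and 4.21 in contralateral RGCs. Postn, a matrix protein on that list, had a log2 level of 5.71 in ipsilateral and 4.84 in contralateral RGCs of round 1, and Pdgfra, a receptor on it, 4.65 in ipsilateral and 5.18 in contralateral RGCs. Of the 9 small proteoglycans of collagen fibers, Ogn and Aspn, both below the filter level on average, had the largest differences in round 1, of 1.12 and 1.25. Dcn, Kera, Optc and Fmod differed by 0.51, 0.27, 0.21 and 0.12 in that round, and Prelp, Bgn and Lum by −0.01, −0.12 and −0.21. The part of connective tissue cells in these values was not tested.

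In rounds 2 and 3 the members beyond 2-fold were partly different ones. In round 2 there were 9, namely Col1a2, Col2a1, Col4a1, Col4a5, Col4a6, Col11a1, Col26a1, Lamb1 and Lamc1 (18.8% of those tested, against 4.22% of all genes). Among these 9, Col4a5 passed the filter only through the ipsilateral samples, which fixes its direction. In round 3 there were 6, namely Col2a1, Col4a1, Col4a2, Col4a6, Col9a1 and Col23a1 (12.5%, against 3.64% of all genes). Only Col2a1 and Col4a1 exceeded 2-fold in all 3 rounds, and 0 members were 2-fold or more lower in any round.

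**Figure D2:**
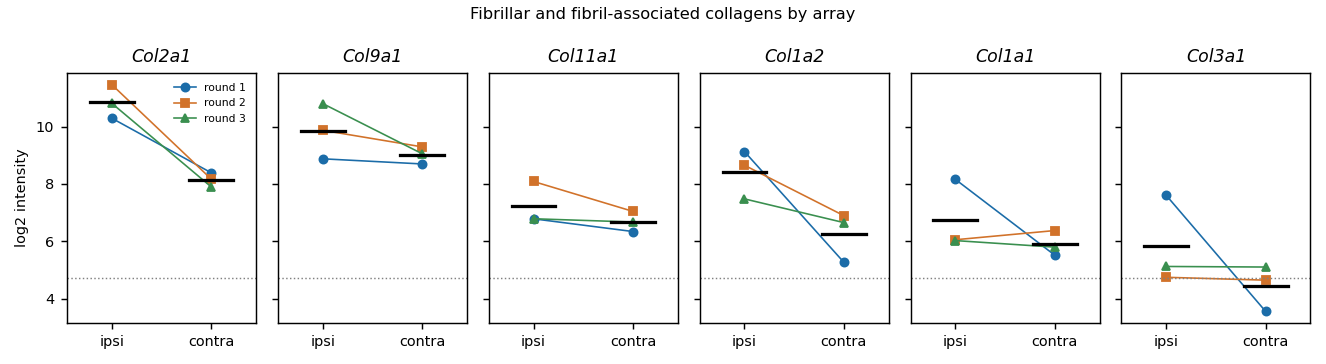
Log2 intensity (vertical axis) of 6 fibrillar and fibril-associated collagen genes, with ipsilateral (ipsi) on the left and contralateral (contra) RGCs on the right. A symbol stands for 1 array, a line for 1 round, black bars are means of 3 arrays and the dotted line is the filter level of 4.74. Each Col2a1 line falls to the right by 1.90 or more, while for Col1a1 and Col3a1 the line of round 1 alone falls by more than 2-fold.

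The fibrillar chains outside these fibers were dim. Col24a1 and Col27a1 differed by −0.39 and 0.24, with mean log2 levels of 4.75 and 5.46 in ipsilateral and 5.14 and 5.22 in contralateral RGCs, and for both the sides overlapped.

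Collagen IV chains, which form the mesh of basement membranes, were higher in ipsilateral RGCs by direction, and none of them passed the test. Of 5 tested chains, 4 were higher in the ipsilateral sample of all 3 rounds (17.6% of all genes were), and in 3 the ipsilateral arrays lay above the contralateral ones without overlap (3.84% of all genes). Col4a5, counted in both, passed the filter only through the ipsilateral samples. The median log2 difference of the 5 chains was 0.90, with 0.71, 1.09 and 1.01 in rounds 1 to 3. The median of round 1 was the value of Col4a5 itself. In that round Col4a1, Col4a2, Col4a6 and Col4a4 differed by 1.23, 0.72, 0.02 and −0.33. Their genes lie in pairs that point away from each other, and RefSeq (build GRCm38.p6) places Col4a1 and Col4a2 on chromosome 8 with start sites 21 bases apart, at 11312826 on the minus strand and 11312805 on the plus strand, so that their first exons overlap by 22 bases. The 300 bases around the start of Col4a2 are shown because in both genes all ipsilateral arrays lay above all contralateral ones, and the capitals mark the 78 bases that also lie in the window of Col4a1. The stretch is at chr8:11312555-11312854 on the plus strand, with 250 bases before the annotated start.
Col4a2: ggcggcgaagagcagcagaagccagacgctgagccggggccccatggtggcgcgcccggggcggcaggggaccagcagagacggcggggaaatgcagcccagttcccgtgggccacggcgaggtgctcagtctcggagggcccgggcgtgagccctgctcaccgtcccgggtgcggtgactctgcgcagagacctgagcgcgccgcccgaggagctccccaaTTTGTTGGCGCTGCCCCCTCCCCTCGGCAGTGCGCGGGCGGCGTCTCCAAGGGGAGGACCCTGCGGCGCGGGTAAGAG
The shared bases hold a GC box (GGGCGG, searched on both strands), and a CCAAT box (CCAAT, likewise) starts at position −32 from the Col4a2 start. In the table of 32851 windows of this length, 35.7% hold such a GC box and 37.4% a CCAAT box, and of 42 windows of the members 59.5% and 33.3% do. A TATA box (TATAAA, both strands) is in 13.6% of all windows, 11.9% of those of the members and 0 of the 5 collagen IV windows. A match describes the letters and not the binding of a factor.

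Col4a1 had log2 levels of 8.67, 9.71 and 9.69 in ipsilateral RGCs, against 7.43, 8.40 and 7.55 in contralateral RGCs. The groups were apart, with differences of 1.23, 1.30 and 2.15 in the rounds. The mean difference of 1.56 was 2.95-fold (SE 0.45, limma adjusted p = 0.461, paired fit 0.0942). It passed with array weights (2.03, adjusted p = 5.4e-05), at a difference near the 2.15 of round 3 alone. A much dimmer probe set of Col4a1 differed by 0.30, and the mean of both by 0.93 (adjusted p = 1).

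Col4a2, whose product joins that of Col4a1 in the most common collagen IV molecule, had log2 levels of 6.43, 7.32 and 6.91 in ipsilateral and 5.72, 6.35 and 5.90 in contralateral RGCs. The groups did not overlap, and the difference was steadier across rounds, at 0.72, 0.97 and 1.01. Its mean of 0.90 had an SE of 0.41 without pairing and 0.15 in the paired fit (limma adjusted p = 1, paired fit 0.115).

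Col4a5 and Col4a6, which form a second pair on chromosome X, encode chains of other collagen IV molecules. Their annotated start sites are 1343 bases apart, so that their windows share no base. The windows are shown for comparison with the first pair, with GC and CCAAT boxes in capitals, at chrX:141475169-141475468 on the plus strand for Col4a5 and chrX:141474027-141474326 on the minus strand for Col4a6.
Col4a5: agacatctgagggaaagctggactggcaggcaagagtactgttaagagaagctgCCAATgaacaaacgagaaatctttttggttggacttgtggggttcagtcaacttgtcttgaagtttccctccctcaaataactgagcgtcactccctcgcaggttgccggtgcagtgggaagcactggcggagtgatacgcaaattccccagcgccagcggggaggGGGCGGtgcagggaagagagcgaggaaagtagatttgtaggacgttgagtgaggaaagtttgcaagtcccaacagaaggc
Col4a6: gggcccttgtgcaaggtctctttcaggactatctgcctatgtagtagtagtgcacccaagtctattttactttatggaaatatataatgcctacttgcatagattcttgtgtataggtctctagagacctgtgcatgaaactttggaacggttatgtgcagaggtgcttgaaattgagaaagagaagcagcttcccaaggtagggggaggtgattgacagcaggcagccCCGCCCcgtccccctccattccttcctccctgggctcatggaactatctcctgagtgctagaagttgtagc
Both windows hold a GC box close to the start, that of Col4a6 on the other strand, and the window of Col4a5 holds a CCAAT box.

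Col4a5 had log2 levels of 5.01, 7.29 and 5.22 in ipsilateral RGCs, against 4.31, 4.57 and 4.49 in contralateral RGCs. Since all contralateral values were under the filter level, the difference is inexact in size. The ipsilateral sample of round 2 stood out, with differences of 0.71, 2.72 and 0.73, and the mean of 1.39 (SE 0.54, limma adjusted p = 1, paired fit 0.270) became 0.66 without ipsilateral replicate 2.

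Col4a6 had log2 levels of 4.72, 6.18 and 6.93 in ipsilateral and 4.70, 5.10 and 5.42 in contralateral RGCs. It differed by 0.02 in round 1 and by 1.088 and 1.502 in rounds 2 and 3, and its mean difference was 0.87 (SE 0.52, limma adjusted p = 1). It was 0.38 when ipsilateral replicate 3 was left out and 1.48 without ipsilateral replicate 1. The pair Col4a3 and Col4a4, chains of kidney and lens basement membranes, was near the filter level, with mean log2 levels of 4.628 and 4.781 in ipsilateral and 4.603 and 4.903 in contralateral RGCs.

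Endothelial cells are a common source of collagen IV, and of the endothelial list Kdr, which the embryonic retina also makes, was 2-fold higher at an unadjusted p under 0.05 (limma adjusted p = 1). Kdr had log2 levels of 7.73, 7.93 and 9.33 in ipsilateral and 7.13, 7.25 and 7.54 in contralateral RGCs, while Pecam1 and Cldn5 differed by −0.09 and −0.14. The part of progenitors and of microglia, whose genes were higher in the same samples, in the collagen IV values was not tested.

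Col18a1 and Col15a1, basement membrane collagens whose ends are cut to endostatin-type fragments, differed by 0.37 (SE 0.42) and 0.06 (SE 0.44), both at a limma adjusted p of 1. Col18a1, which in humans is needed for the vitreous and retina, had log2 levels of 6.99, 7.78 and 7.09 in ipsilateral and 6.54, 7.43 and 6.78 in contralateral RGCs. Its excess in the rounds was small and even, at 0.45, 0.35 and 0.30, within groups that overlapped.

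Laminin chains had smaller differences than collagen IV chains by median (0.15 against 0.90), which was not tested. The collagen IV median includes Col4a5, which passed the filter only through the ipsilateral samples. Of 10 tested, 0 passed limma in either direction, 0 did with the replicate block, and 0 passed at 2-fold when the p was left unadjusted. Their log2 differences ran from −0.30 to 0.73, and by direction 4 were higher and 1 was lower in all 3 rounds, where 17.6% and 20.2% of all genes were.

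Lamc1, the gamma chain of most laminins, was the brightest laminin gene. It had log2 levels of 7.83, 8.71 and 8.35 in ipsilateral RGCs and 7.38, 7.64 and 7.69 in contralateral RGCs. This was the single laminin gene in which all ipsilateral arrays lay above all contralateral arrays, with differences of 0.45, 1.07 and 0.66. The mean of 0.73 had an SE of 0.40 (limma adjusted p = 1, paired fit 0.203), and a second probe set differed by 0.37. Lamc3, another gamma chain, differed by −0.03.

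Lamb1, a beta chain of early embryonic laminins, had log2 levels of 5.80, 7.18 and 5.66 in ipsilateral and 5.33, 5.47 and 5.75 in contralateral RGCs. The difference rested on round 2, with 0.47, 1.71 and −0.10 in the rounds. The mean of 0.69 (SE 0.46, limma adjusted p = 1) became 0.21 without ipsilateral replicate 2, and 2 other probe sets differed by 0.04 and 0.26. Lamb2, the beta chain of mature laminins in retina and synapse, differed by 0.41 (SE 0.43), and Lamb3, an epidermal beta chain, by −0.08.

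Among the alpha chains, which carry most of the sites that cells bind, Lama5 was the brightest, with log2 levels of 7.08, 8.47 and 7.88 in ipsilateral and 6.71, 8.24 and 7.82 in contralateral RGCs. The rounds lay further apart than the sides, and the difference was 0.22 (SE 0.50) and turned negative without ipsilateral replicate 2 or contralateral replicate 1. Within rounds 1 to 3 Lama5 differed by 0.37, 0.23 and 0.06, so the turn also holds the offset between rounds. Lama1, without which the inner limiting membrane of the mouse is malformed, had log2 levels of 5.98, 7.41 and 6.53 in ipsilateral and 5.60, 7.07 and 6.18 in contralateral RGCs. Its differences of 0.38, 0.34 and 0.35 were almost equal in the 3 rounds, and the mean of 0.36 had an SE of 0.49 without pairing (limma adjusted p = 1, paired fit 0.343). Lama2, the alpha chain of muscle, and Lama3, of epidermis, differed by 0.08 and −0.08. Lama4, the alpha chain of vessel walls, had ipsilateral levels under the contralateral ones throughout, by differences of −0.46, −0.15 and −0.30 (limma adjusted p = 1), and a second probe set of about the same brightness differed by 0.12.

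**Figure D3:**
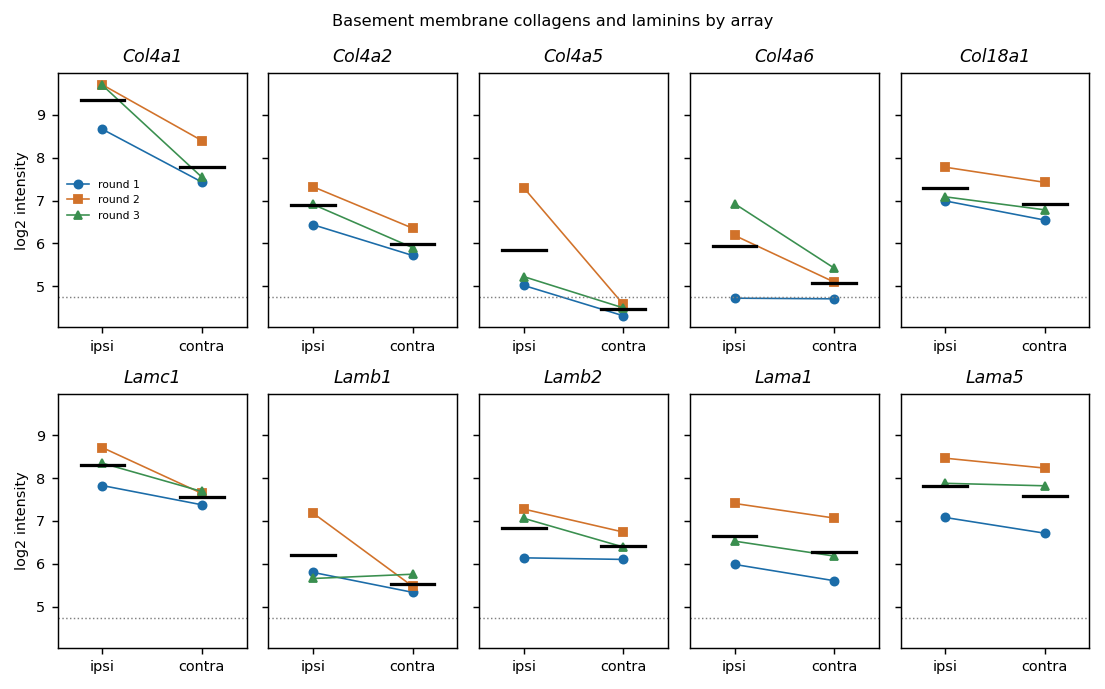
Log2 intensity (vertical axis) of 10 basement membrane genes, with ipsilateral (ipsi) on the left and contralateral (contra) RGCs on the right. A symbol stands for 1 array, a line for 1 round, black bars are means of 3 arrays and the dotted line is the filter level of 4.74. Col4a1, Col4a2, Col4a5 and Lamc1 have all ipsilateral arrays above all contralateral ones, and Lama1 and Lama5 differ more between rounds than between sides.

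The largest difference toward contralateral RGCs was that of Col19a1, a fibril-associated collagen that some neurons of the mouse brain make. It had log2 levels of 5.73, 7.49 and 6.90 in ipsilateral and 6.61, 8.004 and 7.57 in contralateral RGCs. Each round had the lower level in its ipsilateral sample, by differences of −0.88, −0.51 and −0.67, although the groups overlapped and the rounds lay apart. The mean of −0.69 (SE 0.52, limma adjusted p = 1, paired fit 0.185) was −0.20 without ipsilateral replicate 1 and −1.08 without ipsilateral replicate 2. Both of the latter values also hold the offset between rounds and do not measure how steady the differences within rounds were. A second, dimmer probe set differed by −0.08. Besides Col19a1 and Lama4, the members lower in all 3 rounds were Col24a1 and Col17a1, a transmembrane collagen of epidermis (−0.10).

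The remaining collagens had log2 differences between −0.15 and 0.39 and none passed limma. Col6a1, Col6a2 and Col6a4, chains of the beaded filaments, differed by −0.15, −0.09 and −0.15, at mean log2 levels from 5.32 to 6.93 in ipsilateral and from 5.47 to 7.02 in contralateral RGCs. Of the transmembrane collagens, Col25a1, which is made by neurons, differed by −0.10, Col13a1 by −0.05 and Col23a1 by 0.39. The last of these was −0.14 in round 1 and 1.11 in round 3, and its 2 other probe sets were higher in the ipsilateral sample of all 3 rounds, with means of 0.67 and 0.59. Col26a1 was uneven in the same way, with 1.12 in round 2 and −0.39 and −0.16 in rounds 1 and 3. The fibril-associated collagens Col12a1, Col14a1, Col16a1, Col20a1 and Col22a1 lay between −0.10 and 0.28, and the network collagens Col8a1 and Col10a1 and the anchoring fibril collagen Col7a1 between −0.05 and 0.14.

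Genes that fold, receive or surround these proteins were examined in 4 lists. Of 24 tested genes that fold, process and crosslink collagen chains, 0 passed limma, and Serpinh1 was 2-fold higher at an unadjusted p under 0.05. Serpinh1, the chaperone Hsp47 that binds collagen chains alone, had log2 levels of 8.51, 9.47 and 9.74 in ipsilateral RGCs, against 7.04, 8.01 and 6.92 in contralateral RGCs. The groups were apart, as they were for Col2a1 and Col4a1, and the difference of 1.91 (SE 0.46) did not pass (limma adjusted p = 0.211, paired fit 0.112). With 1 array left out the adjusted p ranged from 0.0184 (without ipsilateral replicate 1) to 1 (without ipsilateral replicate 3), and Serpinh1 also passed with median centring (0.0469), with an intensity trend and robust estimation (0.0272) and with array weights (1.04e-05). The difference of Serpinh1 with array weights was 2.63, near the 2.81 of round 3 alone. The general enzymes P4hb and Ppib, which act on many secreted proteins, differed by 0.11 and 0.13, and the prolyl hydroxylase P4ha1 by 0.12. The median of the list was 0.08.

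Of 12 tested receptors for collagens and laminins, Lair1 rose and none fell, where 0.358% of all genes rose and 0% fell. Lair1, an inhibitory collagen receptor of immune cells, had log2 levels of 8.84, 7.64 and 7.73 in ipsilateral and 3.95, 5.78 and 5.36 in contralateral RGCs. The difference was 3.04 (SE 0.52, limma adjusted p = 0.0274, paired fit 0.154, quantile normalization 0.0722), with 4.89, 1.86 and 2.37 in rounds 1 to 3. The median differences of the microglia and macrophage list were 4.428, 3.995 and 2.855 in these rounds. The part of such cells in the level of Lair1 was not tested. Without contralateral replicate 1 the limma adjusted p of Lair1 was 0.0647, and as the mean of all its probe sets Lair1 differed by 1.49 (adjusted p = 0.505).

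Itga6, the integrin alpha chain of laminin receptors, had log2 levels of 7.90, 9.06 and 8.80 in ipsilateral RGCs, against 6.62, 7.59 and 6.70 in contralateral RGCs. The groups did not overlap, with a difference of 1.62 (SE 0.45, limma adjusted p = 0.417, paired fit 0.0748 and 6.02e-05 with array weights). The difference of Itga6 with array weights was 2.00, near the 2.10 of round 3 alone. Its partner Itgb1 differed by −0.09, the dystroglycan gene Dag1 by 0.18 and the collagen receptor gene Ddr1 by 0.24, at mean levels from log2 9.16 to 10.41 in ipsilateral and from 8.98 to 10.17 in contralateral RGCs. The laminin receptor chain Itga3 differed by 0.03. The median of the receptors was 0.07.

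Of 12 other basement membrane genes, 0 passed limma with an adjusted p and 0 with an unadjusted one at 2-fold. Nid2, a nidogen that links laminin to collagen IV, had log2 levels of 5.05, 7.23 and 5.53 in ipsilateral and 4.10, 5.47 and 5.18 in contralateral RGCs, a difference of 1.02 (SE 0.56), or 0.38 without ipsilateral replicate 2 and 0.615 without contralateral replicate 1. It was higher in the ipsilateral sample of all 3 rounds, as was Npnt, an integrin ligand of basement membranes, with a difference of 1.27 (SE 0.70). That of Npnt passed with array weights (1.46, adjusted p = 0.0150) but was 0.37 without contralateral replicate 1 and 0.58 as the mean of all its probe sets. Agrn and Hspg2, the heparan sulfate proteoglycans agrin and perlecan, differed by −0.24 and 0.17, and agrin was among the brightest genes of the list at a mean log2 level of 10.75 in ipsilateral and 10.99 in contralateral RGCs. Of 5 tested small proteoglycans of collagen fibers, 0 passed limma, whether the p was adjusted or not, and their differences ran from −0.26 to 0.42.

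**Figure D4:**
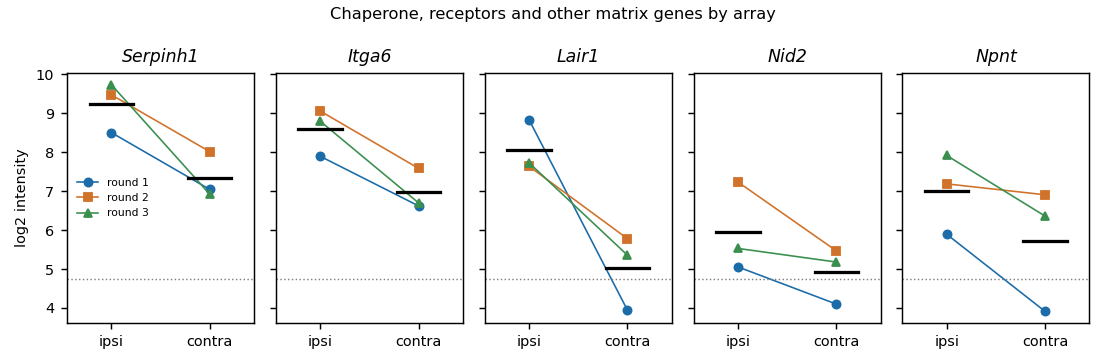
Log2 intensity (vertical axis) of 5 genes that fold, receive or bind collagens and laminins, with ipsilateral (ipsi) on the left and contralateral (contra) RGCs on the right. A symbol stands for 1 array, a line for 1 round, black bars are means of 3 arrays and the dotted line is the filter level of 4.74. Serpinh1, Itga6 and Lair1 have all ipsilateral arrays above all contralateral ones.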

How the data were processed

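The authors deposited 1 log2 intensity for each probe set and array, and the submitters' processing notes name RMA and Affymetrix Expression Console 1.1. Which arrays were normalized together, the RMA version and a genome build are not given in the sources used here. Of 45101 probe sets, 64 controls were left out, and 36029 of the rest with a mean log2 value at or above the 20th percentile (4.74) were tested. A gene name was unique for 34945 of the rest, multiple for 932 and lacking for 9160, and 34741 of the unique ones were found in the RefSeq table by Entrez identifier. The sides were compared by lmFit and eBayes of limma 3.58.1 (R 4.3.3) without a block, checked on simulated data, with p-values adjusted by the Benjamini–Hochberg method over all probe sets tested and a call at 2-fold and an adjusted p under 0.05. The simulated arrays had no round effect, and no probe set was given a spread above the median. That check thus could not show whether a fit without a block suits these arrays. Same-numbered arrays deviated together (correlations of 0.511, 0.541 and 0.612 across probe sets, −0.353 to −0.208 otherwise), and the study prepared both sides of a round alike, so the replicate block was an alternative. The median SE was 0.44 without and 0.16 with the block over the brightest probe sets.

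Samples were grouped by their titles. Values by array are given for called members, members 2-fold different with 1 sign in all rounds and members above log2 9, and further members and partner genes were picked after their values were seen. Partner genes were to be the called ones and up to 3 per list with the largest difference of 1 sign in all rounds. The members and all lists were chosen with earlier results of these data known. Col2a1, Col1a2 and Col4a1 are in a gene table that the study made from these arrays, at 2-fold and a corrected p under 0.05 in its own processing. The same table holds Serpinh1, Itga6, Lair1 and the called progenitor and microglia genes. The alternatives were the block, other filters, quantile normalization, median centring, an intensity trend, array weights, all probe sets of a gene, other thresholds and leaving out each array. Promoter windows are from RefSeq (GRCm38.p6), found for 38 of the 52 members. The number of arrays, 3 a side, limits the precision.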

Additional observations from a re-analysis of the deposited data

How the results depend on the processing

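The count of 1 collagen higher in ipsilateral RGCs was 0 with the replicate block, 5 with array weights (Col1a2, Col2a1, Col4a1, Col4a6 and Col9a1), 2 with an intensity trend and robust estimation, 4 at an unadjusted p under 0.05, and from 0 to 1 with 1 array left out. It was 1 with the other filters, quantile normalization, median centring, all probe sets of a gene and no fold threshold. Laminins called, and collagens called lower, were 0 under all alternatives run. For the partner lists, alternatives chosen after the data were seen gave a count of 4 with array weights, 2 with an intensity trend or median centring, 3 at an unadjusted p, 0 with the replicate block, quantile normalization or all probe sets of a gene, and from 0 to 2 with 1 array left out. The median log2 difference was 0.33 for collagens and 0.29 for laminins with the filter at the 50th percentile. With 1 array left out it ranged from −0.085 to 0.38 for collagens and from −0.14 to 0.60 for laminins. That of all genes ranged from −0.255 to 0.215. Each of these was lowest without contralateral replicate 1 and highest without ipsilateral replicate 1. Leaving out 1 array leaves its round with a single side, and array medians differed more between rounds than between sides. Differences of single genes with 1 array left out therefore also hold an offset between rounds, whose size per gene was not tested. Under these alternatives Col4a6 (1.41, adjusted p = 0.00565) and Col9a1 (1.58, adjusted p = 0.00154) passed with array weights, whose estimation stopped before it converged. In each fit, also with 2 arrays left in a group, limma moderates the spread of a probe set by that of all probe sets. Of the 48 tested members, 20 kept the sign of their difference under all alternatives run, and 28 took the other sign in at least 1, Lama1, Lama4 and Lama5 among them, 20 of these only with 1 array left out. Within every round Lama1 and Lama5 were higher and Lama4 was lower in the ipsilateral sample. Dim members, near the filter level, limit what these arrays can show.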

Other observations

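The progenitor genes had median log2 differences of 1.51, 2.15 and 2.88 and the microglia and macrophage genes of 4.43, 3.995 and 2.85 in rounds 1 to 3, beside collagen medians of 0.16, 0.20 and 0.01 and laminin medians of 0.07, 0.22 and 0.04. Their part in the collagen and laminin values was not tested.

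Probe sets of a gene did not always move alike. For Col1a2, whose brightest probe set differed by 2.15, the second differed by 1.35, with 2.03, 1.72 and 0.31 in the rounds, and another stayed below the filter level in all arrays. For Col3a1, the second probe set was below the filter level in all arrays and differed by 0.20, −0.28 and −0.19 in rounds 1 to 3. For Col9a3, whose brightest probe set differed by 0.30, the second differed by 0.81, higher in the ipsilateral sample of all 3 rounds. For Col4a5 the second probe set differed by 1.17, with the largest excess of 1.84 in round 3 and not in round 2.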
